A study of Mus musculus with 9 samples.

Results

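The genes described here are the 3 peroxisome proliferator-activated receptors (PPARs) and 5 genes that are widely used as readouts of PPAR activity and of fatty acid oxidation. They were taken by symbol from a count table of 23955 rows, and all 8 have 1 row each: Ppara, Pparg and Ppard for the receptors, Cpt1a and Acadm for oxidation, and Pdk4, Angptl4 and Plin2 for fuel choice and lipid storage. Expression was measured by RNA-seq in mouse gut epithelial organoids, which are self-organising cultures of epithelium alone, started from pieces of gut tissue. Every organoid came from APCmin/+ mice, which carry a truncating allele of Apc in the germ line and develop intestinal polyps, so the control cultures carried the mutation too. There were 3 samples of organoids from the macroscopically normal gut next to the polyps (MIN), 3 from adenomatous polyps (adenoma), and 3 from polyps that were then exposed to the non-steroidal anti-inflammatory drug (NSAID) sulindac (sulindac-treated adenoma). All were grown in a medium with Noggin, EGF, bFGF, R-spondin1 and B27. Dose, duration and vehicle of the organoid treatment, the age of the mice, and which mouse gave which culture are not given in the sources used here. The study calls its samples biological replicates, but no label ties them to animals, so p-values measure the spread between these samples.

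PPARs are nuclear receptors that bind fatty acids and their derivatives. Each pairs with a retinoid X receptor (RXR) and sits on direct repeats of the hexamer AGGTCA that are separated by a single base. PPARα, encoded by Ppara, is best known for inducing fatty acid oxidation in liver and gut enterocytes, PPARγ for adipocyte differentiation and lipid storage, and PPARδ for oxidation in muscle and as a receptor studied in intestinal tumours of Apc mutant mice. Several NSAIDs also bind PPARs, in addition to their usual targets, the cyclooxygenases.

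The promoters of 3 readout genes are shown because these genes hold the hexamer near their start sites and yet had different expression profiles, as given in the results that follow. They come from RefSeq (GRCm38.p6) and run from 250 bases before to 50 bases after a start site, on the strand of the gene. Capitals mark AGGTCA or, where the match is on the other strand, TGACCT.
Acadm, chr3:153944594-153944893, minus strand: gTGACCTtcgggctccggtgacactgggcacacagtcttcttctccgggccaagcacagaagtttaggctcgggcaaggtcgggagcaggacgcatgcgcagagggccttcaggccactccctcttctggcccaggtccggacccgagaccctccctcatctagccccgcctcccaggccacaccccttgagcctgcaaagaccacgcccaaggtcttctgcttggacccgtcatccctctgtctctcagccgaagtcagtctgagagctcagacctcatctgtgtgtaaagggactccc
Cpt1a, chr19:3323051-3323350, plus strand: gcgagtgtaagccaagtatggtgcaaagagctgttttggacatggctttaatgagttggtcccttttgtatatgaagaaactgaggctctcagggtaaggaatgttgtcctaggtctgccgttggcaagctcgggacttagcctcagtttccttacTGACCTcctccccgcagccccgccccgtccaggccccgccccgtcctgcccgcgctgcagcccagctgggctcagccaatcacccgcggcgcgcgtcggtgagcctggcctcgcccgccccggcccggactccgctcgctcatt
Plin2, chr4:86670010-86670309, minus strand: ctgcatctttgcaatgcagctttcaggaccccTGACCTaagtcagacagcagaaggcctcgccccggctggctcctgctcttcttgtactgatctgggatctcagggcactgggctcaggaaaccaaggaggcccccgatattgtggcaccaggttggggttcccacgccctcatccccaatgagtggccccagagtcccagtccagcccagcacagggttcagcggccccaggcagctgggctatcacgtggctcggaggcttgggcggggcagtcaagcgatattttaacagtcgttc
All 3 matches lay on the strand opposite to the gene. Of the 8 genes, 7 had a window in the RefSeq table and Angptl4 had none. The hexamer was found on either strand in 4 of those 7 genes, the fourth being Pparg, and in 18.1% of the 27025 genes with windows. The full repeat AGGTCANAGGTCA was in 0 of the 7 genes and in 0.0396% of the 32851 windows. These are matches of letters in a short window and say nothing about binding.

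Total counts ranged from 30881206 to 48412477 per sample, with 5.15% to 7.48% of each in its 10 top genes. Levels are given as CPM (reads of a gene scaled to a fixed library total) after trimmed mean of M-values (TMM) scaling, and a floor of 3 counts corresponded to 0.0641 to 0.10 CPM. The epithelial markers Epcam, Cdh1, Krt8, Krt18 and Krt19 summed to 4780 to 7286 CPM in MIN, 3049 to 4041 in adenoma and 4216 to 5028 in sulindac-treated adenoma. Markers of absorptive enterocytes, the cells that take up dietary fat, differed far more: 10 of 10 were lower in adenoma than in MIN, their summed level being 4813 to 4947 CPM in MIN, 384 to 492 in adenoma and 443 to 478 after sulindac. Of the 10, 4 were at or under the floor in every adenoma sample, so lower was the only call open to them. The part of the enterocyte shift in the results on lipid genes was not tested. Leukocyte markers summed to 2.97 to 16.6 CPM in all samples with Emr1 at 0, fibroblast markers to 0.764 to 4.22 with Col1a2, Col3a1, Dcn and Lum at 0, endothelial markers to 1.44 to 7.61, and adipocyte markers to 15.7 to 29.3 with Plin1, Lep and Cfd at 0. Muscle markers summed to 16.8 to 48.6 CPM in MIN, 3.46 to 8.64 in adenoma and 212 to 499 after sulindac, nearly all of it from Acta1.

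To ask how the receptors differed between normal and neoplastic epithelium and with the NSAID, their levels were compared among the 3 groups. Ppara was almost lost in adenoma and lower again after sulindac, Ppard was highest after sulindac, and Pparg did not pass the threshold in any comparison. Ppara, the receptor of the fasting response, measured 37.9, 41.9 and 27.8 CPM in MIN samples 1 to 3. In adenoma it measured 1.97, 2.65 and 1.50 CPM, and after sulindac 0.733, 0.856 and 0.785 CPM. The 3 groups did not overlap at any point. In raw counts these levels stood for 1020 to 1963 reads in MIN, 52 to 95 in adenoma and 22 to 28 after sulindac, all above the floor. Ppara was 17.5-fold lower in adenoma than in MIN, with a log2 fold change of -4.13 ± 0.25 (SE, n = 3 per group; adjusted p = 2.74e-06, edgeR's quasi-likelihood test). In these bulk samples, fewer cells that express the gene and less RNA per cell cannot be told apart.

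After sulindac, Ppara was 2.56-fold lower than in untreated adenoma (log2 fold change -1.36 ± 0.30, adjusted p = 0.00891 by edgeR's quasi-likelihood test). This call was close to the false discovery rate (FDR) threshold of 1% and was lost without adenoma sample 1 (adjusted p = 0.0209) or 2 (0.0364) and without sulindac sample 1 (0.0391), 2 (0.0263) or 3 (0.0377). Against MIN, which is the comparison that shares its samples with the other 2, the sulindac-treated level was 45.2-fold lower (log2 fold change -5.50 ± 0.21, adjusted p = 1.57e-07).

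Ppard measured 58.8, 59.2 and 70.0 CPM in MIN, 73.7, 72.6 and 75.3 in adenoma, and 109.3, 100.2 and 101.5 after sulindac. Every sulindac-treated sample was above every untreated one, and MIN sample 3 was the MIN sample nearest to adenoma. Ppard rose 1.41-fold with sulindac over adenoma (log2 fold change 0.50 ± 0.09, adjusted p = 0.0037) and was 1.65-fold higher than in MIN (0.72 ± 0.09, adjusted p = 0.000166), both by edgeR's quasi-likelihood test. Adenoma against MIN gave 0.24 ± 0.11 (adjusted p = 0.0898). The sulindac over adenoma call was lost when scaled by library size alone (adjusted p = 0.0214), and without adenoma sample 1 (0.0135) or 2 (0.0153) or sulindac sample 1 (0.0227), 2 (0.010) or 3 (0.0186), with log2 fold changes of 0.45 to 0.54 in the fits that left out a sample.

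Pparg, the receptor bound by several NSAIDs, measured 39.0, 42.6 and 55.2 CPM in MIN, 35.2, 27.4 and 43.6 in adenoma, and 53.6, 48.5 and 44.2 after sulindac. MIN overlapped both other groups, whereas the lowest sulindac-treated sample was just above the highest adenoma sample. None of the 3 comparisons passed: the log2 fold changes were -0.36 ± 0.19 for adenoma over MIN (adjusted p = 0.15), 0.47 ± 0.16 for sulindac over adenoma (0.0528) and 0.09 ± 0.14 for sulindac over MIN (0.569). Without adenoma sample 3, the most Pparg-rich of its group, the sulindac over adenoma difference passed (adjusted p = 0.00773). Without MIN sample 1, sulindac over MIN turned to -0.01.

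**Figure D1:**
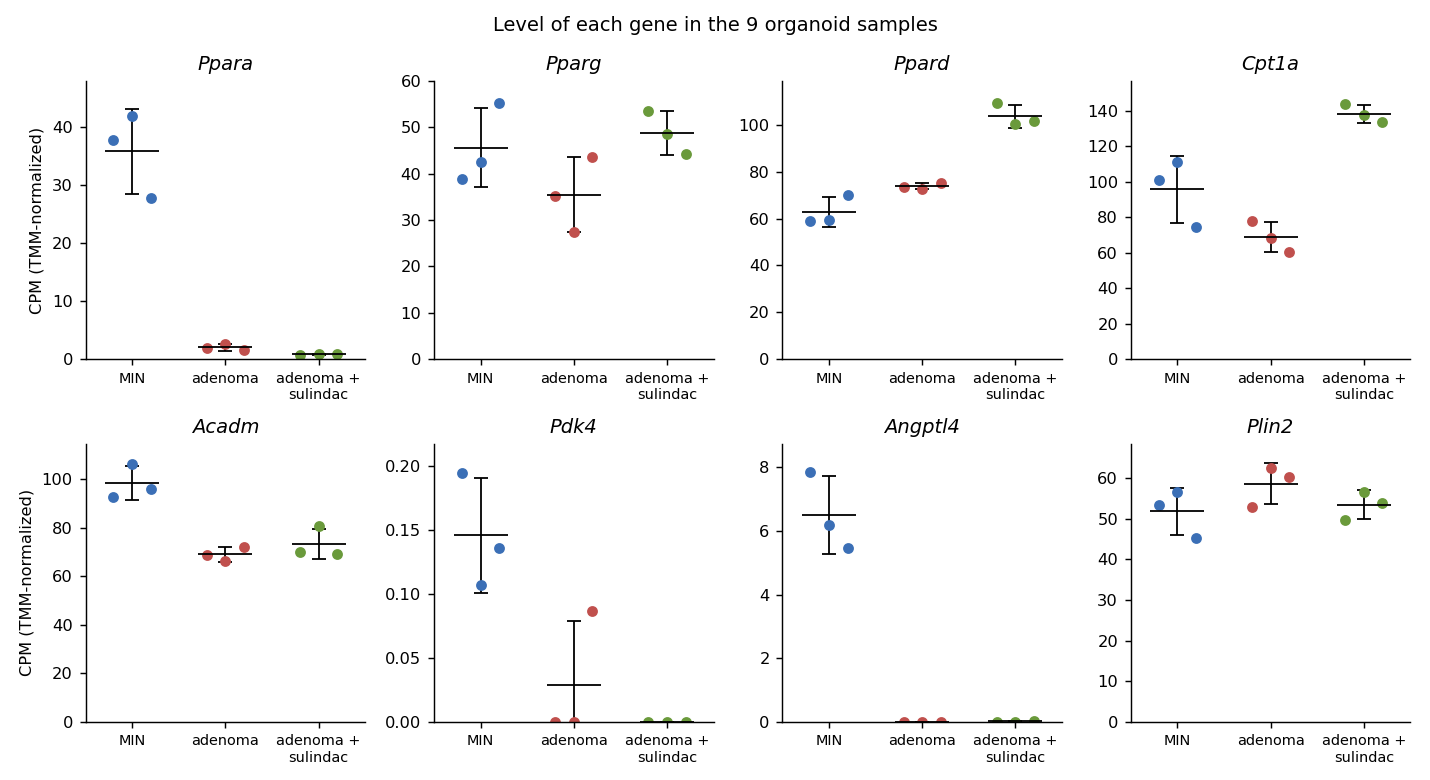
Levels of the 8 genes in TMM-normalized CPM (vertical axes, each from 0) in the 3 MIN, 3 adenoma and 3 sulindac-treated adenoma samples; dots are samples, horizontal lines group means and bars ± SD, cut at 0. Ppara, Angptl4 and Pdk4 were highest in MIN, and Cpt1a and Ppard were highest after sulindac.

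Per kilobase of exon, counted over all annotated exons of a gene, the receptors stood closer together in MIN than in the other groups. Which transcripts were expressed is not known here, so the order of the genes and their shares depend on that choice of length. The mean level per kilobase in MIN was 15.4 CPM for Pparg, 9.35 for Ppara and 8.34 for Ppard; every Pparg value was above those of Ppara, and Ppara and Ppard overlapped. In adenoma the means were 12.0 for Pparg, 9.83 for Ppard and 0.532 for Ppara, and after sulindac 16.5, 13.8 and 0.206. Ppara was below both other receptors in every adenoma and sulindac-treated sample. As a share of the summed level of the 3 receptors, Ppara made up 32.0%, 32.9% and 20.5% in MIN, 2.30%, 3.52% and 1.56% in adenoma, and 0.581%, 0.744% and 0.714% after sulindac.

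**Figure D2:**
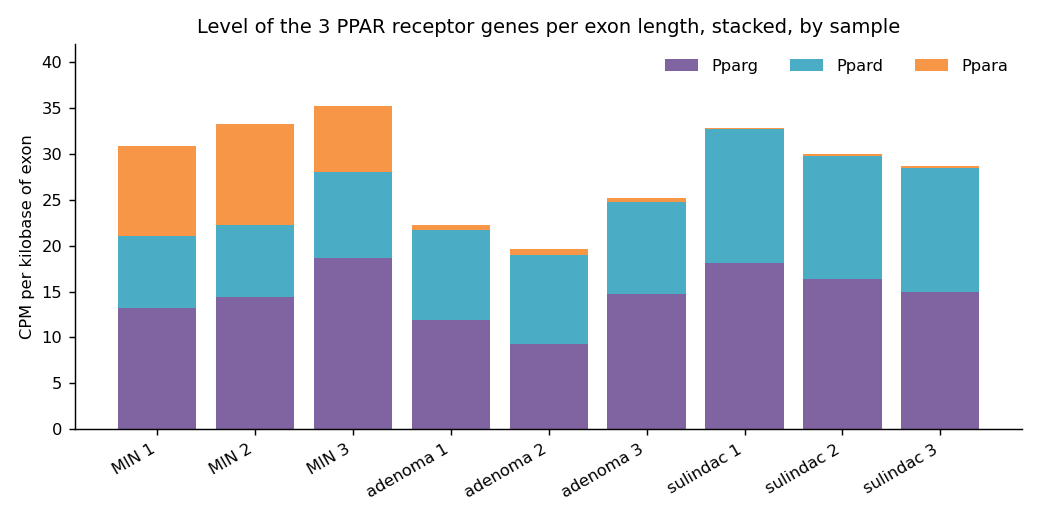
Stacked level of Pparg, Ppard and Ppara in each of the 9 samples, in CPM per kilobase of exon (vertical axis). The Ppara segment is 20.5% to 32.9% of the bar in MIN samples and at most 3.52% in adenoma and sulindac-treated samples.

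The 2 oxidation genes had different profiles: Cpt1a rose with sulindac, whereas Acadm fell in adenoma and differed little between treated and untreated adenoma. Cpt1a encodes the liver isoform of carnitine palmitoyltransferase 1, the gate for entry of long-chain fatty acids into mitochondria. It measured 101.1, 111.2 and 74.4 CPM in MIN, 77.7, 68.2 and 60.4 in adenoma, and 143.6, 137.5 and 133.3 after sulindac. All 3 treated samples were above all 6 untreated ones, and MIN sample 3 lay within the range of adenoma. Sulindac-treated adenoma had 2.02-fold the Cpt1a level of untreated adenoma (log2 fold change 1.01 ± 0.12, adjusted p = 0.000587, edgeR's quasi-likelihood test), and the call held without each sample in turn, with adjusted p of 0.000451 to 0.00399.

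The other 2 comparisons of Cpt1a missed the threshold: adenoma over MIN gave -0.47 ± 0.16 (adjusted p = 0.0388) and sulindac over MIN 0.53 ± 0.14 (adjusted p = 0.0108). Both changed with the MIN samples used. Without MIN sample 3, adenoma over MIN passed (adjusted p = 0.00588), and sulindac over MIN passed without MIN sample 2 (0.00492) or 3 (0.00339).

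Acadm encodes medium-chain acyl-CoA dehydrogenase, which catalyses the first step of each β-oxidation cycle on medium-chain acyl-CoA. It measured 92.6, 106.1 and 95.9 CPM in MIN, 68.7, 66.2 and 72.0 in adenoma, and 70.0, 80.5 and 69.2 after sulindac. The MIN samples were above all others, and treated and untreated adenoma overlapped. Acadm was 1.42-fold lower in adenoma than in MIN (log2 fold change -0.51 ± 0.10, adjusted p = 0.00269) and 1.35-fold lower after sulindac than in MIN (-0.43 ± 0.09, adjusted p = 0.00321), both by edgeR's quasi-likelihood test. Sulindac over adenoma gave 0.09 ± 0.09 (adjusted p = 0.473), and -0.07 when scaled by library size alone.

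The Acadm calls did not hold in every setting. For adenoma over MIN the call was lost when scaled by library size alone (adjusted p = 0.0116) and without MIN sample 2 (0.0183) or adenoma sample 1 (0.0129) or 2 (0.0140). For sulindac over MIN it was lost without MIN sample 2 (0.0158) or sulindac sample 1 (0.0155) or 3 (0.0185).

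Among the readouts of fuel choice and storage, Angptl4 was measured almost only in MIN, Pdk4 was near the limit of detection everywhere, and Plin2 stayed within a narrow range. Angptl4 encodes a secreted inhibitor of lipoprotein lipase that is induced by all 3 PPARs and by hypoxia. Its counts were 323, 289 and 201 in MIN, 0 in each adenoma sample, and 0, 0 and 1 after sulindac. Measured against a floor of 3 counts per library, the mean of 6.50 ± 1.22 CPM (SD, n = 3) in MIN was at least 76.6-fold above adenoma. After sulindac the MIN-to-treated ratio of summed counts was 633.4, with an exact 95% interval of 113.4 to 25050 that covers counting error only. Angptl4 passed the low-count filter only through MIN, so its passing the test against MIN is no evidence of its own and no p is given. Treated and untreated adenoma were both under the floor, so no fold is given between them.

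Pdk4 encodes pyruvate dehydrogenase kinase 4, which switches cells from glucose to fatty acid use. Its counts were 8, 5 and 5 in MIN, 0, 0 and 3 in adenoma, and 0 in each sulindac-treated sample. It passed the low-count filter in no comparison and was not tested. The MIN samples were above the others, the ratio of summed counts of MIN to adenoma being 5.10 (exact 95% interval for counting error only 1.49 to 27.0), and MIN was at least 1.57-fold above the floor of the treated samples.

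Plin2 encodes perilipin 2, which coats lipid droplets. It measured 53.5, 56.7 and 45.3 CPM in MIN, 53.0, 62.7 and 60.4 in adenoma, and 49.6, 56.7 and 54.0 after sulindac. All 3 groups overlapped. The log2 fold changes were 0.18 ± 0.12 for adenoma over MIN (adjusted p = 0.247), -0.13 ± 0.10 for sulindac over adenoma (0.37) and 0.04 ± 0.11 for sulindac over MIN (0.763, and -0.05 without MIN sample 3).

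**Figure D3:**
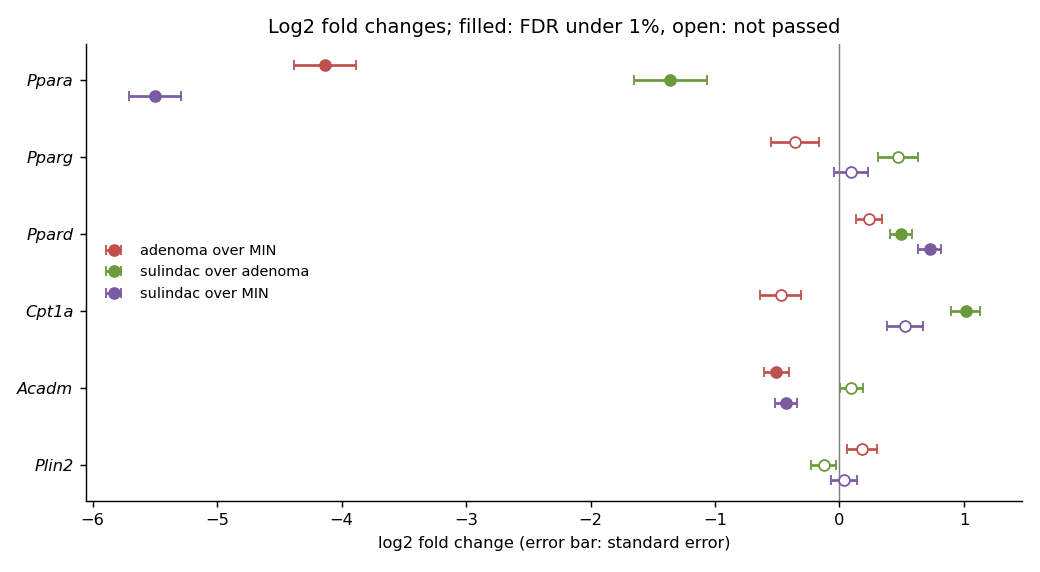
Log2 fold changes (horizontal axis, bars ± SE) of the 6 genes with counts in every sample, in 3 comparisons of 3 against 3 samples; filled points passed an FDR of 1% and open points did not. Ppara reaches -5.50, while Cpt1a and Ppard lie to the right of 0 after sulindac.

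Adenoma over MIN gave 0 genes higher and 3 lower (Ppara, Acadm and Angptl4) of 7 tested, beside 18.5% higher and 20.1% lower of 13744 genes tested. Angptl4 entered that count, and the matching one for sulindac over MIN, only through its level in MIN, which leaves 2 lower of 6. At an unadjusted p under 0.05, 0 were higher and 4 lower, and DESeq2 called 0 higher and 3 lower, both with Angptl4 among them. Sulindac over adenoma gave 2 higher (Ppard and Cpt1a) and 1 lower (Ppara) of 6 tested, beside 8.32% and 9.1% of 12962 genes. Those counts were 1 and 0 without adenoma sample 1 or 2 or sulindac sample 1, 2 or 3, and 3 and 1 without adenoma sample 3. Sulindac over MIN gave 1 higher (Ppard) and 3 lower (Ppara, Acadm and Angptl4) of 7, beside 23.0% and 26.8% of 13551 genes, and 2 higher without MIN sample 2 or 3. Of the genes tested, adenoma lay wholly above MIN for 1 (Ppard) and wholly below for 3 (Ppara, Acadm and Angptl4), beside 30.7% and 32.2% of all genes tested. Sulindac-treated samples lay wholly above untreated adenoma for 3 (Pparg, Ppard and Cpt1a) and below for 1 (Ppara), beside 22.9% and 26.0%. They lay above MIN for 2 (Ppard and Cpt1a) and below for 3 (Ppara, Acadm and Angptl4), beside 33.5% and 36.0%.

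The rest of the pathway was read from 11 lists with 161 genes in the table. In adenoma over MIN, 9 of the 142 genes tested were higher and 72 lower, with a median log2 fold change of -0.58, beside 18.5% higher, 20.1% lower and a median of -0.01 over all genes tested. Genes counted as lower that passed the low-count filter only through MIN included Cd36, Fabp1, Fabp6, Acaa1b, Acot4 and Mgll. Cidec, G0s2, Creb3l3, Pck1 and Abca1 were others. Each had a mean of at most 0.208 CPM in adenoma, so lower was the only call open to them. Enterocyte markers were lower in the same comparison, 10 of 10 with a median of -7.75. Of these, 4 were at or under the floor in every adenoma sample and could only come out lower. The part of the enterocyte markers in the result was not tested. Scaling by library size alone moved the median of all genes to 0.12.

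Mitochondrial β-oxidation had 0 enzymes higher and 14 lower of 21 in adenoma (0 higher and 17 lower at an unadjusted p under 0.05, 0 and 15 by DESeq2; median -0.59), and 9 lower without MIN sample 2 or adenoma sample 2. Decr1, which reduces double bonds of unsaturated acyl-CoA, fell from 85.5 ± 6.23 to 19.0 ± 1.68 CPM (SD, n = 3; log2 fold change -2.17). Acaa2, the last enzyme of the cycle, fell from 148.9 ± 11.1 to 44.5 ± 5.64 CPM. Acadl, the long-chain counterpart of Acadm, fell from 101.9 ± 15.1 to 39.2 ± 1.75 CPM, and Acot2, a mitochondrial acyl-CoA thioesterase with close relatives that may share its reads, from 10.8 ± 2.13 to 1.02 ± 0.158 CPM.

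Peroxisomal β-oxidation, which shortens very long and branched chains, had 1 gene higher and 10 lower of 16 (median -0.73). Ehhadh, its bifunctional enzyme and a classic PPARα target, fell from 78.5 ± 20.0 to 5.60 ± 1.16 CPM (log2 fold change -3.81), and Acox2, an oxidase of branched chains, from 51.6 ± 7.95 to 14.8 ± 4.63 CPM. Acaa1b had 2686 reads in MIN and 3 in adenoma (ratio 761.6, exact 95% interval 260.3 to 3695), and its reads may be shared with Acaa1a. That interval covers counting error only, and the MIN samples ranged from 328 to 1268 reads.

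In the carnitine shuttle, where Cpt1a acts, 0 were higher and 3 lower of 10 (1 and 5 at an unadjusted p under 0.05, 1 and 4 by DESeq2; median -0.32), with 1 higher without adenoma sample 2. Crot, which makes carnitine esters in peroxisomes, fell from 81.1 ± 3.95 to 37.3 ± 2.82 CPM, and Acaca, whose product malonyl-CoA inhibits Cpt1a, from 216.6 ± 29.1 to 109.5 ± 24.5 CPM. Slc25a20, the carrier across the inner membrane, fell from 36.7 ± 3.64 to 25.5 ± 1.66 CPM, but was called in only 2 of the 6 fits that left out a sample.

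Fatty acid uptake and binding had 2 genes higher and 8 lower of 15 (median -0.93). Fabp1, the liver-type binding protein that is abundant in small intestine, fell from 571.4 ± 294.1 to 0.0861 ± 0.101 CPM and Fabp2, its intestinal relative, from 183.1 ± 76.1 to 2.35 ± 0.763 CPM. Cd36, the fatty acid translocase, had 647 reads in MIN and 1 in adenoma (ratio 550.3, exact 95% interval for counting error only 98.4 to 21771), and Fabp6, which binds bile acids, 586 and 1.

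Ketone body genes had 0 higher and 5 lower of 6 (1 and 5 at an unadjusted p under 0.05 and by DESeq2), led by Bdh1, which interconverts the 2 main ketone bodies, at 199.8 ± 27.6 CPM in MIN and 40.0 ± 9.01 in adenoma. Without MIN sample 1 or 2 or adenoma sample 2 the lower count was 3, and 1 gene was higher without MIN sample 2 or adenoma sample 1. The pyruvate dehydrogenase switch, which Pdk4 belongs to, had 0 higher and 5 lower of 11 (0 and 6 at an unadjusted p under 0.05 and by DESeq2). Those that fell included subunits of the enzyme complex (Pdhx, Pdha1 and Dld) as well as the inhibiting kinase Pdk3, from 29.1 ± 2.49 to 18.0 ± 1.29 CPM.

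Lipid droplet genes, the family setting of Plin2, were mixed, with 3 higher and 6 lower of 15, and 1 higher without MIN sample 2 or adenoma sample 1. Cideb, which enlarges droplets and loads lipoproteins, fell from 38.1 ± 6.07 to 1.66 ± 0.793 CPM, and Cidec from 9.84 ± 1.22 to 0.208 ± 0.211 CPM. The lipoprotein lipase axis around Angptl4 had 0 higher and 3 lower of 6 (1 and 3 at an unadjusted p under 0.05, 0 and 3 by DESeq2; 1 higher without MIN sample 3), including the endothelial lipase gene Lipg, from 23.0 ± 5.88 to 4.14 ± 0.797 CPM.

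Of the receptors' partners and cofactors, 0 were higher and 4 lower of 14 (2 and 6 at an unadjusted p under 0.05, 0 and 4 by DESeq2; 1 higher without adenoma sample 3), a share of 28.6% lower beside 20.1% of all genes tested. Ppargc1a, a coactivator of mitochondrial gene expression, fell from 15.9 ± 4.67 to 2.94 ± 1.10 CPM, and its relative Ppargc1b from 20.1 ± 0.801 to 3.92 ± 0.629 CPM. Ncoa1, a steroid receptor coactivator, fell from 74.4 ± 3.97 to 35.8 ± 6.92 CPM. Rxra, the RXR partner, fell from 96.9 ± 6.20 to 70.0 ± 6.43 CPM (adjusted p = 0.00666, edgeR's quasi-likelihood test). That call was lost when scaled by library size alone (adjusted p = 0.0466) and in 5 of the 6 fits that left out a sample. Blocking same-numbered samples, which no label ties together, also lost it (adjusted p = 0.0121).

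Other PPAR target genes had the lowest median of the 11 lists at -2.44, with 1 higher and 9 lower of 14. Creb3l3, Pck1 and Abca1 passed the low-count filter only through MIN. The median and the lower count thus rest in part on genes that could only come out lower. Cyp4f14, a fatty acid hydroxylase, fell from 240.8 ± 57.9 to 0.698 ± 0.186 CPM and Creb3l3, a transcription factor of liver and gut lipid metabolism, from 58.0 ± 24.5 to 0.208 ± 0.0342 CPM. Hypoxia targets, listed because Angptl4 is among the genes that hypoxia induces, had 2 higher and 5 lower of 14 (median -0.07), with 1 higher without MIN sample 1 or 2 or adenoma sample 2 or 3. Bnip3 rose from 179.4 ± 22.5 to 489.8 ± 63.5 CPM, whereas Ndrg1 fell from 794.3 ± 74.7 to 302.5 ± 33.8 CPM.

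**Figure D4:**
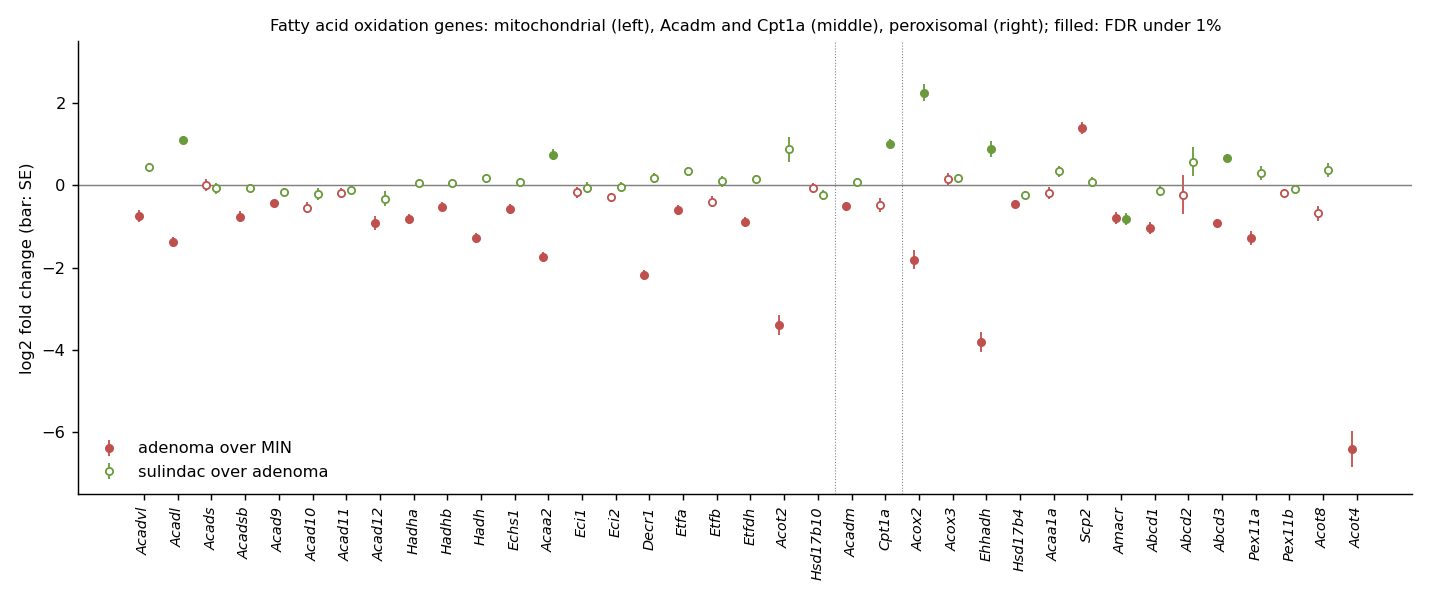
Log2 fold changes (vertical axis, bars ± SE) of mitochondrial and peroxisomal β-oxidation genes, with Acadm and Cpt1a between them; filled points passed an FDR of 1%. Acaa1b, with 3 counts in adenoma, is left out, not every peroxisomal gene is shown, and genes that failed the low-count filter in a comparison have no point for it. For adenoma over MIN 14 of 21 mitochondrial genes are lower (66.7%, beside 20.1% of all genes tested). For sulindac over adenoma 2 are higher (9.52%, beside 8.32%).

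Sulindac-treated adenoma was then compared with untreated adenoma, to ask which of these genes moved with the drug. Of 132 pathway genes tested, 29 were higher and 5 lower (22.0% and 3.79%, beside 8.32% and 9.1% of all genes), with a median log2 fold change of 0.25 beside -0.01. The count of higher genes changed with the samples and the scaling: it was 19 with library size alone (beside 7 lower), 15 without adenoma sample 2, 14 without sulindac sample 1, and 13 without sulindac sample 2 or 3. The count of lower genes was 3 without adenoma sample 1 or sulindac sample 2 and 2 without sulindac sample 1 or 3. Genes that passed the low-count filter through only 1 of the groups entered these counts. They included Cidec, which could only come out higher, and Slc27a2, which could only come out lower. The enterocyte marker sum overlapped between these groups, with 1 marker higher and 2 lower of 5 tested.

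Of the 30 genes that the naming rule chose, 12 were called without each sample in turn, 7 of them in the β-oxidation and PPAR target lists. Acox2 rose from 14.8 ± 4.63 to 69.9 ± 4.37 CPM (log2 fold change 2.25 ± 0.21, adjusted p = 0.000252 by edgeR's quasi-likelihood test). The peroxisomal list had 4 higher and 1 lower of 14, with 2 higher without sulindac sample 3 and 0 lower without adenoma sample 1 or any single sulindac sample, the lower gene being the racemase Amacr, at 9.83 ± 0.822 and 5.55 ± 0.464 CPM, which was called in 2 of the 6 fits that left out a sample.

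Mitochondrial β-oxidation had 2 higher and 0 lower of 21 (5 and 0 at an unadjusted p under 0.05, 4 and 0 by DESeq2), with a median of 0.06, and 1 higher without adenoma sample 2 or sulindac sample 1 or 2. Its share of higher genes, 9.52%, was near the 8.32% of all genes tested. Acadl rose from 39.2 ± 1.75 to 84.2 ± 4.75 CPM (log2 fold change 1.11 ± 0.09) and was called without each sample, whereas Acaa2, at 44.5 ± 5.64 and 74.4 ± 8.84 CPM, was called in 3 of the 6 fits. The carnitine shuttle had 2 higher and 0 lower of 10 (4 and 1 at an unadjusted p under 0.05, 2 and 0 by DESeq2). These were Acacb, which makes malonyl-CoA at mitochondria, at 10.4 ± 4.76 and 31.0 ± 2.79 CPM, and the carnitine importer Slc22a5, at 29.5 ± 1.68 and 39.7 ± 2.26 CPM, called in 2 and 1 of the 6 fits. The list had 1 higher without any single adenoma sample and 0 without any single sulindac sample.

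Other PPAR target genes had 4 higher and 0 lower of 9 (5 and 0 at an unadjusted p under 0.05 and by DESeq2), and the 4 were called without each sample. Me1, which makes NADPH from malate, rose from 196.2 ± 27.5 to 451.4 ± 32.0 CPM, Vnn1, a pantetheinase, from 2.07 ± 0.516 to 7.50 ± 1.20 CPM, and Cyp4f14 from 0.698 ± 0.186 to 4.08 ± 0.809 CPM. Acot1, a cytosolic thioesterase closely related to Acot2, rose from 1.17 ± 0.137 to 8.50 ± 3.75 CPM, and its reads may be shared with that gene. Hypoxia targets had 5 higher and 0 lower of 14 (7 and 1 at an unadjusted p under 0.05, 6 and 1 by DESeq2), with 2 higher without adenoma sample 1 or 2 or sulindac sample 1 or 2 and 3 without sulindac sample 3. Those called without each sample were Ero1l, an oxidase of the endoplasmic reticulum, from 759.5 ± 98.5 to 1998 ± 222.4 CPM, and the glucose transporter gene Slc2a1, from 174.2 ± 13.1 to 327.6 ± 36.5 CPM.

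Fatty acid uptake and activation had 5 higher and 1 lower of 12, with 1 higher without sulindac sample 2, 2 without adenoma sample 2 or sulindac sample 3, and 3 without sulindac sample 1. Acsl3, which activates fatty acids at lipid droplets, rose from 101.5 ± 6.59 to 191.6 ± 17.3 CPM, and Slc27a2, a very long-chain acyl-CoA synthetase, fell from 7.57 ± 1.49 to 0.468 ± 0.344 CPM. Lpl, the enzyme that Angptl4 inhibits, fell from 3.51 ± 0.313 to 0.501 ± 0.124 CPM. These 3 genes were called without each sample. Slc27a2 passed the low-count filter only through untreated adenoma, so lower was the only call open to it and its call is no evidence of its own.

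The remaining lists held few calls. Lipid droplet genes had 3 higher and 0 lower of 15 (7 and 1 at an unadjusted p under 0.05, 5 and 1 by DESeq2), with 1 higher without adenoma sample 1 or 2 and 0 without any single sulindac sample. Of those 3, Cidec passed the low-count filter only through the treated samples and could only come out higher. Partners and cofactors had 1 higher and 0 lower of 14 (3 and 0 at an unadjusted p under 0.05, 2 and 0 by DESeq2), the higher gene being the coactivator Ncoa3, at 42.8 ± 5.57 and 69.5 ± 7.15 CPM, whose call was lost without adenoma sample 2 or sulindac sample 1 or 3. That share of higher genes, 7.14%, was near the 8.32% of all genes tested. The ketone and pyruvate dehydrogenase lists each had 1 higher and 1 lower, and both had 0 higher without adenoma sample 2 or any single sulindac sample. For the pyruvate dehydrogenase list this was 9.09% in each direction, near the 8.32% higher and 9.1% lower of all genes tested. The lower count was 0 for ketone genes without sulindac sample 1 or 3, and for pyruvate dehydrogenase genes without adenoma sample 1 or 2 or any single sulindac sample. Without adenoma sample 3 the ketone list had 2 higher and the pyruvate dehydrogenase list 2 lower.

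**Figure D5:**
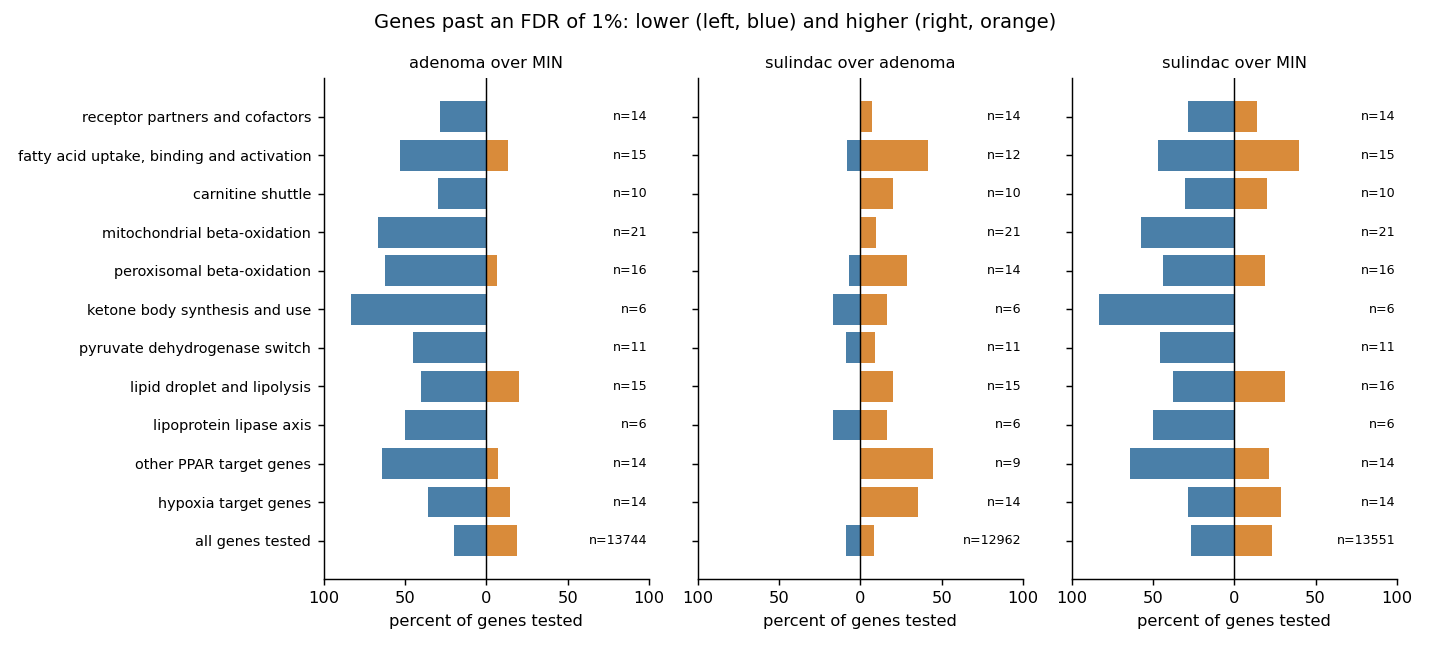
Percent of the genes tested in each of 11 pathway lists that passed an FDR of 1% lower (left) or higher (right), with all genes tested in the bottom row, in 3 comparisons; n is the number of genes tested. For adenoma over MIN the mitochondrial β-oxidation bar extends only to the left (14 of 21), and for sulindac over adenoma most bars extend to the right.

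Sulindac-treated adenoma against MIN, which shares samples with the comparisons already described, gave 25 higher and 65 lower of 143 pathway genes, beside 23.0% and 26.8% of all genes, and the 10 enterocyte markers were all lower (median -8.25). Of these markers, 2 were at or under the floor in every treated sample and could only come out lower. The same holds for genes that passed the low-count filter only through MIN. These included Cd36, Fabp1, Fabp6, Slc27a2, Acaa1b, Acot4, Mgll, Abca1, Creb3l3 and Pck1, so the count of lower genes rests in part on them. Mitochondrial β-oxidation had 0 higher and 12 lower of 21 (0 and 19 at an unadjusted p under 0.05, 0 and 13 by DESeq2). Decr1 measured 21.5 ± 2.72 CPM after sulindac and Hadh, a dehydrogenase of the cycle, 182.5 ± 16.4, beside 85.5 ± 6.23 and 391.9 ± 28.6 in MIN. Ppargc1a, at 4.82 ± 0.409 CPM, and Ppargc1b, at 6.59 ± 0.687 CPM, were also below MIN. Acacb was above it, at 31.0 ± 2.79 CPM beside 4.16 ± 1.50, as was the droplet gene Cidea, at 1.72 ± 0.241 CPM beside 0.141 ± 0.0670. Cidea passed the low-count filter only through the treated samples.

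Genes with the profile most like each of the 6 genes with counts above the floor were sought by Pearson correlation of log2(CPM + 0.5) over the 9 samples, which share the 3 group means. They were Tpsg1, Capn9 and Slc25a15 for Ppara (r of 0.998 to 0.999), 2200002D01Rik, Gapdh and Bhlhe40 for Pparg (0.956 to 0.974), and Bahd1, Akirin2 and Foxq1 for Ppard (0.993). Kctd21, Kcnq1 and Git1 were nearest to Cpt1a (0.983 to 0.996), Ndufa10, Txn2 and Dhrs7b to Acadm (0.983 to 0.988), and Grn, Cyp2c44 and Trmt1l to Plin2 (0.916 to 0.952). The values are descriptions and carry no test.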

How the data were processed

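RNA was sequenced from 9 organoid cultures, 3 per group, and samples were grouped by their labels. The authors deposited raw counts per gene symbol. Their processing notes name Bowtie2 2.2.4, RSEM and mm9, with no role or annotation stated. The values are whole numbers and were taken as counts, but rounded expected counts would be whole numbers too. The table has 3 columns headed MIN1, the third being the sum of the other 2 in all 23955 rows, and the third was used. Per-sample columns of other samples numbered 0. Date-like names replace 27 symbols. Total counts were 30881206 to 48412477 per sample, which limits precision mainly for genes near the floor of 3 counts.

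Groups were compared by edgeR 4.0.16 (R 4.3.3) with filterByExpr, TMM factors and the robust quasi-likelihood test on the 2 groups compared, and p-values were adjusted by Benjamini-Hochberg over all genes tested, at an FDR of 1%. The scripts were tested on simulated counts. SE is the log2 fold change divided by the root of F. Same-numbered adenoma and MIN samples deviated together weakly (r = 0.126, 0.113 and 0.192 over genes), beside r of -0.149 to 0.0685 for samples with different numbers. A fit with the replicate number as a block was therefore run beside the main one, although no label pairs the samples. Alternatives were relative log expression (RLE) factors, library size alone, no filter, a minimum of 10 counts throughout, a joint fit of all 9 samples, that block, DESeq2 1.42.0, an FDR of 5%, and leaving out each sample. Ratios of summed counts carry exact 95% intervals, which cover counting error only and not the spread between samples. Counts at an unadjusted p under 0.05 are given without a share over all genes.

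The genes and lists were chosen with earlier results of these data known. Per list and comparison, up to 4 genes were eligible to be named, those with the largest absolute log2 fold change that passed with groups not overlapping, and of these the text names some; a few items are not reported here. Exon lengths and shared 50-base stretches (at most 2.57% for any of the 8 genes) came from GENCODE M21 on GRCm38, not from the authors' annotation. The strand setting of the counting is not given in the sources used here. No exon of the 8 genes overlaps another gene in that annotation.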

Additional observations from a re-analysis of the deposited data

How the results depend on the processing

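Ppara kept its calls against MIN in every alternative listed, as did Cpt1a in sulindac over adenoma. For sulindac over adenoma, library size alone gave 1 of the 8 genes higher, the replicate block 1 higher and 0 lower, and leaving out a sample 1 to 3 higher and 0 to 1 lower. For sulindac over MIN the block, DESeq2 and an FDR of 5% each gave 2 higher, and leaving out a sample 1 to 2. Pathway genes in adenoma over MIN rose to 17 higher at an FDR of 5%. In sulindac over adenoma they were 19 higher with library size alone, 8 lower with DESeq2 and at an FDR of 5%, and 13 to 33 higher and 2 to 6 lower when a sample was left out. Log2 fold changes that turned sign were those of Acadm in sulindac over adenoma (-0.0731 with library size alone) and, in sulindac over MIN, of Pparg (-0.00836 to 0.250 when a sample was left out, the lowest without MIN sample 1) and Plin2 (-0.0515 to 0.111, the lowest without MIN sample 3). None of the 3 had passed the threshold. Of the pathway genes that the naming rule chose, 38 of 42 in adenoma over MIN, 12 of 30 in sulindac over adenoma and 37 of 43 in sulindac over MIN were called without each sample in turn. The cause of these changes was not tested.

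Over all genes, sulindac over adenoma gave 1078 higher and 1179 lower, against 603 and 1983 with library size alone, where the median moved to -0.18, 1778 and 1766 with DESeq2, 2034 and 2374 at an FDR of 5%, and 423 to 1403 and 386 to 1488 without a sample. Same-numbered samples did not all deviate together in sulindac over adenoma (r = 0.253, 0.208 and -0.0740) or sulindac over MIN (-0.0303, 0.396 and 0.252). With the replicate block, Ppara (adjusted p = 0.0107) and Ppard (0.0118) lost their calls in sulindac over adenoma, Cpt1a gained one in sulindac over MIN (0.00525), and all genes gave 872 higher and 1061 lower in sulindac over adenoma. Fits that leave out a sample keep 2 in its group. Depth limits Pdk4 and Angptl4, which were at or under 3 counts in every treated and untreated adenoma sample.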
